A study of Homo sapiens with 4 samples.

Results

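MALAT1 is a nuclear long non-coding RNA, here examined for its crosslinking to PR100-FLAG, a poly(PR) protein of 100 dipeptide repeats with a triple FLAG tag. It was chosen by name, as 1 of 62700 annotated genes, and its crosslinking events were those on its own strand inside its gene span. They numbered 5574 of the 1244203 events of 4 iiCLIP libraries. In iiCLIP, UV light joins protein to RNA, the tagged protein is immunoprecipitated, and reverse transcription tends to stop next to the joined nucleotide, so that each unique cDNA marks 1 crosslinking event at 1 position. All libraries came from HEK293T cells, a human embryonic kidney line, transiently transfected with the PR100-3xFLAG pcDNA5 plasmid by Lipofectamine 2000. Expression was induced by doxycycline at 150 ng/ml for 24 h, cells received a single UV dose of 160 mJ/cm2 at 254 nm, and a mouse FLAG antibody from Sigma and proteinase K were used to recover the RNA. Gel separation (SDS-PAGE) was used for replicates 1, 2 and 3, whereas replicate 4 was purified on beads alone. Replicate 3 had a shorter random barcode (5 nt) than the others (7 nt). The libraries held 334057, 604816, 125694 and 179636 events in order of replicate number. The protein is overexpressed in a kidney line, every library is of the same condition, and libraries of other conditions were not analysed here. Nothing in the labels ties the replicates to separate cultures, so the spread between them may be technical.

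MALAT1 accumulates at nuclear speckles, bodies rich in splicing factors and SR proteins. It is made as a mostly unspliced transcript whose 3′ end is cut by RNase P, which also frees the small tRNA-like mascRNA. The mature end carries no poly(A) tail; instead, U-rich tracts fold around a genome-encoded A-rich tract as a triple helix that protects the RNA from decay. Poly(PR) is one of the arginine-rich dipeptide repeat proteins translated from the C9orf72 repeat expansion of amyotrophic lateral sclerosis and frontotemporal dementia, and it enters the nucleus.

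In GENCODE 44 on GRCh38, MALAT1 (ENSG00000251562) spans 10434 nt at chr11:65497640-65508073 on the plus strand, and its canonical transcript (ENST00000534336) is a single exon that holds every nucleotide up to the A-rich tract. Of the 66 annotated transcripts, 19 share the start at 65499045, and distances below are counted from it as nucleotide 1. The A-rich tract of 13 nt ended at 65506110, 7066 nt from the shared start, and was followed after 6 nt by an annotated 57-nt small RNA gene (ENSG00000274072), in the place of mascRNA. The first sequence below is shown because it carried the most events. The next lines are shown because they held the strongest cluster and the largest clusters outside that stretch. The last is shown because it runs from the U-rich to the A-rich tract of the triple-helix end. It stops at the A-rich tract and leaves out the 6 nt before the small RNA gene. All are RNA sequences of the plus strand of GRCh38, 5′ to 3′. In the first 4, capitals mark copies of GAAGA, of its relative GAGGA or of the relative GACGA, which the study groups as GANGA motifs, and in the last they mark runs of at least 4 U and the run of A. Each cluster window of 36 nt has the cluster's highest position as its nucleotide 6.
Stretch from nucleotide 561 to 860, chr11:65499605-65499904: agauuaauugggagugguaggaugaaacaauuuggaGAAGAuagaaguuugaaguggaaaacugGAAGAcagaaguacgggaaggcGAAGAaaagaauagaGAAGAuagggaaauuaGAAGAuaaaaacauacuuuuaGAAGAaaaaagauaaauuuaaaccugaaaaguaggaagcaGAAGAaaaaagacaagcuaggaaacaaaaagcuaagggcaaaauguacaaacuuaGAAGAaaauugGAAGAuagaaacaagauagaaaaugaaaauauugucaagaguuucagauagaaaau
Window of the strongest cluster, chr11:65499675-65499710: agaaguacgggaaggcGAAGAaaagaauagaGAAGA
Window of the cluster at nucleotide 182, chr11:65499224-65499259: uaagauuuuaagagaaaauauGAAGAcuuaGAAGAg
Window of the cluster at nucleotide 2836, chr11:65501877-65501912: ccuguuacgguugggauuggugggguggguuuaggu
3′ end from the U-rich to the A-rich tract, chr11:65506029-65506110: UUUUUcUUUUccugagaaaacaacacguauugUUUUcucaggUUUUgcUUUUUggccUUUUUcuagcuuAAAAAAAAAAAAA

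MALAT1 was among the RNAs with the most events in every library. It held 2062, 2344, 424 and 744 events in replicates 1 to 4, which is 6173, 3876, 3373 and 4142 events per 1000000 events of the library (CPM), with a mean of 4391 ± 1230 (SD, n = 4). Replicate 1 was high, and the other three lay close together. The gene had rank 3 in replicates 1, 2 and 3 and rank 2 in the beads library, whereas only 2.62% of the 29263 annotated genes with an event reached 200 pooled events. Per kb of gene span it came 13th of the 766 genes that reached 200 events, at 534 pooled events per kb. For spliced genes the span includes introns, which MALAT1 lacks in its canonical transcript. Its share of a library's events was 0.617% (exact binomial 95% interval 0.591 to 0.644%) in replicate 1 and 0.337% (0.306 to 0.371%) in replicate 3. These intervals, and those below, cover counting error only. The values count crosslinked cDNAs and not RNA level, so more MALAT1 molecules and more crosslinking per molecule cannot be told apart.

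The events spread over many positions and piled up at some. They lay at 899, 881, 116 and 455 positions in replicates 1 to 4, or 2.29, 2.66, 3.66 and 1.64 events per position, against 1.47, 1.67, 2.16 and 1.15 over whole libraries. MALAT1 was above its library in all 4. In replicate 3, which had the short barcode, only 18.1% of MALAT1 positions held a single cDNA. The share was 47.1%, 43.2% and 74.7% in replicates 1, 2 and 4. Over whole libraries it was 69.7%, 67.4%, 69.5% and 95.5% in replicates 1 to 4, so replicate 3 was not low as a library by this share. NEAT1, compared below, held 1.49, 1.69, 4.13 and 1.02 events per position, so replicate 3 was highest for it as well. The highest count at a MALAT1 position was 22, 37, 11 and 19 cDNAs, far under the number of barcodes possible (1024 with 5 nt and 16384 with 7 nt). The 2 positions with the most events were 65499680, a U that held 19, 25, 0 and 19 events, and 65499777, a G with 22, 37, 0 and 2. Replicate 3 had no event at either. On the opposite strand, inside the antisense genes TALAM1 and ENSG00000270117 that overlap MALAT1, the libraries held 1, 0, 0 and 2 events in all.

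Crosslinking was concentrated in the 5′ part of the RNA and was strongest between 501 and 1000 nt from the shared start. This 500-nt bin held 652, 919, 160 and 419 events, or 31.6%, 39.2%, 37.7% and 56.3% of MALAT1 events in replicates 1 to 4 (mean 41.2% ± 10.6, SD, n = 4). It was the highest bin in each library and took more in the beads library (95% interval 52.7 to 59.9%) than in any SDS-PAGE library (at most 42.5% by the same intervals). The intervals treat events as independent, although events piled up at some positions, and the bin was picked as the highest in these data. With a single beads library, purification and replicate cannot be told apart. The bin before it, from the shared start to nucleotide 500, held 8.99% ± 2.81, and the bin after it, from 1001 to 1500, 12.3% ± 2.69. The first 2000 nt, a limit chosen after the values were seen, made up 28.3% of the length and held 66.1%, 67.2%, 70.5% and 79.3% of events. The density was 191 pooled events per 100 nt in them and 34.2 beyond.

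**Figure D1:**
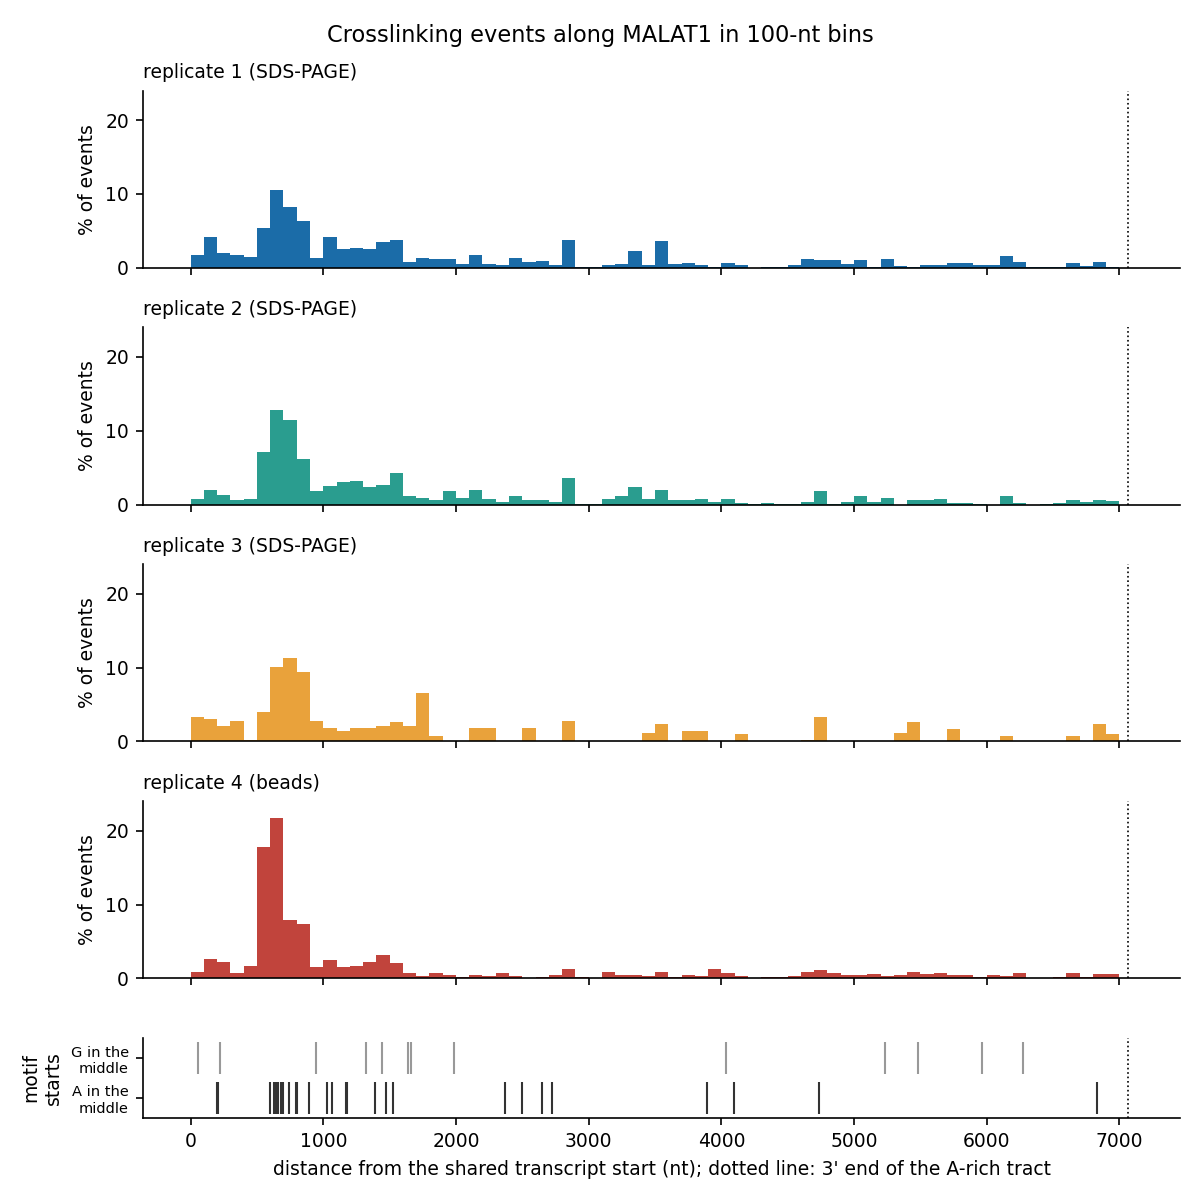
Share of each library's MALAT1 events (percent, y axis) in 100-nt bins along the RNA (nt from the shared start, x axis), 1 panel per library. Marks below show where GAAGA (A in the middle) and GAGGA (G in the middle) start; each library peaked between 501 and 1000 nt, where GAAGA marks are dense.

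Measured over the canonical transcript up to the A-rich tract, the 3′ 50% of MALAT1 held 27.1%, 26.0%, 23.8% and 18.4% of events in replicates 1 to 4. The mean of 23.8% ± 3.85 (SD, n = 4) was below the even share of 50% in all 4 libraries (two-sided exact permutation of signs over libraries, p = 0.125; no smaller value is possible with 4 libraries). From the shared start these 3′ 50% held 17.9% ± 2.43. The 1405 nt that only the longer transcripts have upstream of the shared start held 8, 2, 0 and 0 events, so 5560 of the 5574 events fell between the shared start and the A-rich tract. A lead of the 5′ side was common among bound RNAs. Of 145 canonical transcripts with at least 200 exonic events, 51.7% had over 50% of their events in the 5′ 50% of the length in all 4 libraries, with a median of 62.9% of pooled events there. MALAT1 cut at the A-rich tract, with 74.8%, came 39th of these, and counted from the shared start, with 82.0%, it came 25th.

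Crosslinking recurred in the same stretches across libraries. When the tenth of 20-nt bins with the most events was chosen in the other three libraries, these bins held 51.1%, 57.9%, 47.2% and 66.3% of the events of the library left out, on 9.92% of the length (higher in 4 of 4, exact sign-flip permutation p = 0.125, the smallest possible). Pearson's r over 85 bins of 100 nt ran from 0.70 between replicates 3 and 4 to 0.95 between replicates 1 and 2, with a mean of 0.84 ± 0.08 over the 6 pairs. These bins share 1 RNA and its base composition, and no p is given. At single positions the overlap was smaller, with 17 of 1658 positions hit in all 4 libraries and 1138 in 1 library.

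The triple-helix end held no event in any library. From the U-rich tract to the end of the A-rich tract, 82 nt printed above, the count was 0 of 2062, 0 of 2344, 0 of 424 and 0 of 744 MALAT1 events, which allows shares of up to 0.145%, 0.128%, 0.708% and 0.403%. These nucleotides make up 1.16% of the length. From nucleotide 2001 to the A-rich tract the RNA held 34.2 pooled events per 100 nt, but only 2.47 and 3.04 per 100 nt in replicates 3 and 4, where an empty stretch of this length says little. The 57 nt of the small RNA gene downstream were also at 0 in all 4 libraries, and 0, 4, 0 and 0 events lay beyond it. Whether short cDNAs at the very end of an RNA or reads from the small RNA could be mapped was not tested.

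Just upstream of the tracts crosslinking was present and uneven between libraries. The last 250 nt held 18, 25, 14 and 7 events. Their density over that of the rest of the canonical transcript was -1.79, -1.49, 0.17 and -1.68 on the log2 scale in replicates 1 to 4, with a mean of -1.20 ± 0.92 (SD, n = 4). Replicate 3 was level with the rest of the RNA and the other three were lower, so the direction was not shared (lower in 3 of 4, exact sign-flip permutation p = 0.25). Against the rest from the shared start it was -1.47 ± 0.92 and below 0 in 4 of 4. In replicate 3, 10 of the 14 events lay in 1 pooled cluster, from nucleotide 6841 to 6868.

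Crosslinking was denser near GAAGA, the pentamer that the study singled out for poly(PR). The study found this motif in its PR100 iiCLIP data, the series that also holds these MALAT1 events. The motif values below thus reuse the data that gave the motif and are not independent support for it. A GANGA motif that started between 5 nt before and 30 nt after the event was found for 954 of 2062, 1170 of 2340, 191 of 424 and 458 of 744 events in replicates 1 to 4. In replicates 1 and 4, for example, that is 46.3% and 61.6%, against 16.4% of canonical transcript positions. The log2 ratio was 1.62 ± 0.20 (SD, n = 4), above 0 in 4 of 4 libraries (exact sign-flip permutation p = 0.125, the smallest possible). Much of this went with the region, since the first 2000 nt carried 28 of the 41 GANGA motifs downstream of the shared start, at 14 per kb against 2.57 per kb beyond. Against positions of the same 500-nt bin the log2 ratio was 0.33 ± 0.06, still above 0 in 4 of 4, and without the bin from 501 to 1000 nt it was 1.06 ± 0.30. Over the 145 canonical transcripts, 39.3% had a GANGA share above that of their positions in all 4 libraries, and the median log2 ratio of the 139 with a value was 0.52 on pooled events. MALAT1 cut at the A-rich tract came 8th at 1.60, and from the shared start 11th at 1.46.

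The motifs of the GANGA group differed among themselves. GAAGA, with 27 copies downstream of the shared start, had a log2 ratio of 1.82, 1.92, 1.72 and 2.26 in replicates 1 to 4, whereas GAGGA, with 13 copies, had 0.02, -0.15, 0.24 and -0.40. GAAGA was high in each library and GAGGA lay around 0. In a comparison chosen after the values were seen, the difference was 2.0 ± 0.50 (SD, n = 4; higher in 4 of 4, exact sign-flip permutation p = 0.125, the smallest possible). Against positions of the same 500-nt bin it was 1.06 ± 0.28, again in 4 of 4, with GAAGA at 0.59 ± 0.07 and GAGGA at -0.46 ± 0.23. GACGA occurred once and was not ranked.

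By site, the 36 nt in which an event counts as near a GAAGA held a median of 95 pooled events, from 4 to 345 over the 27 copies, compared with 28.3 events in an average window of this length. Above that average were 21 of the 27 GAAGA copies and 4 of the 13 GAGGA copies, whose median was 20 events. Windows of neighbouring copies overlap and share events. The copies at nucleotides 625, 647 and 597, all in the printed stretch, came first with 345, 341 and 290 events. The window at 625 held 78, 166, 19 and 82 events in replicates 1 to 4, and that at 647 held 94, 175, 1 and 71. Replicate 3 was thus nearly empty at the second of these sites. At the other end, the GAAGA at nucleotide 2366 held 5 events and that at 3894 held 4, under the average although they carry the motif.

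The stretch from 561 to 860 shows this crowding. Its 300 nt, 4.25% of the length, contained 9 GAAGA copies and 75.7% purines, and held 26.3%, 32.6%, 26.9% and 48.1% of MALAT1 events in replicates 1 to 4. GAAGA starts were seen both before and after the crosslinked position. They were most frequent from 0 to 30 nt downstream, at 1.84% of events per offset, and lay at 1.07% from 30 to 1 nt upstream, against 0.382% of all positions. Farther out, 31 to 50 nt away, they were at 1.24% on the upstream side and 1.34% on the downstream side, so much of the excess over all positions was not close to the event. The highest single offset was 6 nt downstream, with 4.12% of events on average over libraries, although in replicate 3 it was 16 nt upstream and in replicate 4 it was 11 nt downstream.

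Among all 582 pentamers with at least 5 copies, 15.3% had a log2 ratio above 0 and 52.4% one below 0 in all 4 libraries. GAAGA had rank 3 (1.93 ± 0.23, SD, n = 4). AAGAC at 2.10 ± 0.22 and GAUAG at 1.98 ± 0.38 came before it, and AGAUA (1.91 ± 0.32) and AAGAU (1.69 ± 0.26) followed. In the printed stretch these purine-rich words stand side by side with GAAGA or overlap it, so their values are not separate. AUAAU, the study's contrast pentamer, had 15 copies and ranked 519th at -1.85 ± 0.62, below 0 in 4 of 4 libraries. It was picked as a less-represented motif from the study's PR100 data, so its low rank is not independent of that choice. Of its copies, 2 lay in the first 2000 nt and 13 beyond, where events were sparser. The lowest were CAUGU (-3.28 ± 0.94), CUGUA (-3.26 ± 0.97), UGUGA (-3.14 ± 1.42), AUCUC (-3.07 ± 1.26) and GAUCC (-3.06 ± 0.99). These ratios describe 1 RNA, in which nearby windows are not independent.

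The authors' clusters, runs of positions that passed a false discovery rate of 0.05, were also dense on MALAT1. The separate libraries had 37, 35, 13 and 6 clusters in the gene. They contained 43.4%, 52.2%, 46.2% and 41.8% of its events in replicates 1 to 4, against 3.83%, 12.4%, 7.79% and 9.08% of the events outside MALAT1. The difference was 37.6 ± 3.34 percentage points (SD, n = 4; higher in 4 of 4, exact sign-flip permutation p = 0.125, the smallest possible). Compared with the events of other genes that reached 200 events it was 25.6 ± 6.0 points, also in 4 of 4. The clusters were called on these same events, and the clusters of a gene depend on its depth. Genes were not matched for their number of events, so these tests cannot tell clustering from depth.

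In the pooled list 66 of 5596 clusters lay in MALAT1. They covered 581 nt with 2722 cDNAs, and 40 of them started in the first 2000 nt. A whole GANGA motif lay in the window of 24 of the 66 (36.4%), and 21 of these 24 started in the first 2000 nt. By the rule for events, 18.1% of positions from the shared start were near a GANGA. That rule is wider, as it needs only the start of the motif in the window. The first 2000 nt are also dense in GANGA, and clusters were not compared with positions of the same region. The libraries' own clusters overlapped 3 of the 66 in all 4 libraries and 14 in none.

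The strongest pooled cluster, from nucleotide 607 to 636, held 96, 189, 19 and 83 events, or 4.66%, 8.06%, 4.48% and 11.2% of MALAT1 events in replicates 1 to 4. The cluster at nucleotide 2836 held 69, 81, 12 and 9 events without any GANGA in its G- and U-rich window, and that at 182, with 2 GAAGA, held 67, 36, 14 and 17. The first was highest in the beads library, the second was lowest there. The largest cluster that was called in the beads library ran from 563 to 658 and held 31% of its MALAT1 events, whereas the same 96 nt held 11.5%, 16.4% and 6.13% in replicates 1, 2 and 3. It was called on the beads library, and no test is given for the difference.

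The crosslinked nucleotide was often U, the base that UV light joins to protein most readily. U made up 39.3%, 34.8%, 51.4% and 32.3% of MALAT1 events, with a mean of 39.4% ± 8.49 (SD, n = 4), against 28.9% of the canonical transcript (higher in 4 of 4, exact sign-flip permutation p = 0.125, the smallest possible). Replicate 3 was highest. The nucleotide after the event was U at 41.5% ± 5.48, above the transcript in 4 of 4 and no lower than the crosslinked nucleotide on average. The nucleotide before it was U at 29.5% ± 5.72, above the transcript in 2 of 4. C was at 8.32% ± 2.41 of events and 16.8% of the sequence. The bin from 501 to 1000 nt, with the most events, had 20.4% U and 70.8% purines, and so less C than the whole transcript. Base shares were not tested against positions of the same bin. Over all events on chromosomes U was at 35.0% ± 4.20.

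Folding of the canonical transcript in silico, within windows of 150 nt, gave a mean probability of being unpaired of 0.466 over all positions. At events it was 0.513, 0.529, 0.487 and 0.565 in replicates 1 to 4 (mean 0.524 ± 0.033, SD, n = 4; higher in 4 of 4, exact sign-flip permutation p = 0.125, the smallest possible). The bin from 501 to 1000 nt, with the most events, was predicted to be more open as a whole at 0.636. Against positions of the same 500-nt bin the difference turned to -0.014 ± 0.021 (above 0 in 1 of 4, exact sign-flip permutation p = 0.25).

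NEAT1 (ENSG00000245532), the neighbouring nuclear RNA that builds paraspeckles, was used as the nearest RNA of a like kind. It held 496, 521, 194 and 129 events, or 1485, 861, 1543 and 718 CPM. Per kb of gene span MALAT1 held 9.07, 9.82, 4.77 and 12.6 times as many events as NEAT1 in replicates 1 to 4. MALAT1 was ahead in each library, least in replicate 3. The log2 ratio was 3.10 ± 0.60 (SD, n = 4; exact sign-flip permutation p = 0.125, the smallest possible). RNA level was not measured here for either RNA, so the ratio compares events and not crosslinking per molecule.

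The profiles of these RNAs differed too. The 5′ 50% of MALAT1, from the shared start, held 82.1% ± 2.43 of events and that of the canonical NEAT1 transcript 58.5% ± 5.17, a difference of 23.6 ± 4.32 points (SD, n = 4; higher in 4 of 4). The GANGA log2 ratio was 1.47 ± 0.20 in MALAT1 and 0.63 ± 0.33 in NEAT1, a difference of 0.84 ± 0.24 in the same direction in 4 of 4. Both had an exact sign-flip permutation p of 0.125, or 0.25 after Benjamini-Hochberg adjustment over 4 tests. The excess of U at events was 3.03 ± 8.58 points larger in MALAT1 (permutation p = 0.625, adjusted 0.75), and that of the unpaired probability 0.010 ± 0.038 larger (permutation p = 0.75, adjusted 0.75), both within the spread between libraries.

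The mRNAs of other nuclear speckle components were described through a list of 38 genes that code for speckle proteins. At least 200 pooled events and a pooled cluster were found for 18 of the 38 (47.4%), against 3.12% of the 16880 protein-coding genes with an event. The list had a median of 187 pooled events and protein-coding genes one of 23. Transcript length and RNA level, which also set such counts, were not matched. The count was 11, 5, 17 and 12 genes without replicates 1, 2, 3 and 4 in turn, lowest without the deepest library.

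SRRM2, which codes for a scaffold of the speckles, led the list with 1067 pooled events, at 748, 896, 430 and 1230 CPM in replicates 1 to 4. SRSF11, for an SR-type splicing factor, held 510 events at 356, 380, 175 and 774 CPM, and DDX39B, for an RNA helicase of splicing and mRNA export, 470 events at 506, 336, 231 and 384 CPM. SRRM2 and SRSF11 were highest in the beads library and DDX39B in replicate 1. THOC2, of the THO export complex, had 398 events at 344, 294, 167 and 468 CPM, and ACIN1, of the exon junction-associated ASAP complex, 378 events at 245, 317, 278 and 384 CPM, both highest in the beads library too. Per kb of gene span SRRM2 held 53.6 pooled events, MALAT1 534. These spans are unlike, since that of SRRM2 includes introns and MALAT1 is a single exon. The 9044 nt of the canonical SRRM2 transcript held 938 pooled events.

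Over the 4 libraries the CPM of MALAT1 was highest in replicate 1 and near level in the rest. The genes with the most similar pattern, by the Euclidean distance of log2(CPM + 1) centred on each gene's mean over the 4 libraries, were NF1 (0.066), ZNF292 (0.088), FAF1 (0.091), TBC1D32 (0.093) and DST (0.110), among 765 others with at least 200 events and a median distance of 0.962. NEAT1 lay at 1.03. FAF1, for example, held 635, 365, 326 and 401 CPM in replicates 1 to 4. These distances rest on 4 libraries of 1 condition.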

How the data were processed

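The authors demultiplexed 100-nt reads, collapsed PCR duplicates by random barcode, mapped to GRCh38 (Gencode 27) with STAR at up to 2 mismatches, and assigned each unique read to the nucleotide preceding it. The deposited values are counts of unique cDNAs per position, unnormalised. Deposited clusters, called by the authors per library and on the pooled positions (used as the authors' sums), carry summed counts. The version of STAR and the distance for joining positions are not given in the sources used here. Depth was 125694 to 604816 events per library.

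Events were placed on GENCODE 44 genes by strand. CPM is the count per 1000000 events of the library. The end of MALAT1 was set at the last run of at least 8 A before the annotated small RNA. The 6 nt between that run and the small RNA were thus left out of the mature RNA. Motif windows ran from 5 nt upstream to 30 nt downstream, pentamers needed at least 5 copies and had 0.5 added to counts, and clusters used the position with the most cDNAs. Differences over the 4 libraries were tested by exact permutation of their signs (two-sided), a step checked on 4 fixed values with a known answer. The motif log2 ratio was tested on simulated data. With 4 libraries p cannot fall below 0.125, so no such test can reach 0.05. Intervals are exact (Clopper-Pearson), and the limit for a count of 0 is 3 counts. RNA was folded with RNAplfold (ViennaRNA 2.7.2; window 150, span 100). Tables were handled in pandas 2.3.3 and NumPy 2.4.6 under Python 3.11.15, intervals came from SciPy 1.17.1, sequence from pysam 0.24.0 and figures from matplotlib 3.10.9. Members, motifs and the speckle list were chosen with earlier results of these data known. Genes named were MALAT1, NEAT1, overlapping genes, the 5 speckle genes with the most events and the 5 nearest patterns, and for pentamers the study's motifs and the 5 highest and 5 lowest. Of the alternatives, 50 were planned and 12 added after seeing the data, among them the shared start and the same-bin backgrounds. Site counts, motif distances, the printed stretch and the comparison of GAAGA with GAGGA were also chosen then.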

Additional observations from a re-analysis of the deposited data

Results flagged for a closer look

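Replicate 3 stood apart in the last 250 nt of MALAT1. Its density there over the rest of the transcript was 0.17 on the log2 scale, whereas replicates 1, 2 and 4 lay between -1.79 and -1.49. The gap to the nearest library was 0.849 of the whole range, above Dixon's 95% critical value for 4 libraries. Chance alone flags about 1 in 20 groups. The value of replicate 3 rests on 14 events in a library with 424 MALAT1 events and the short barcode, and the part of depth or barcode in it was not tested. Of these 14 events, 10 lay in 1 pooled cluster from nucleotide 6841 to 6868. The same cluster held 13, 7 and 1 events in replicates 1, 2 and 4.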

How the results depend on the processing

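Of the results compared with their alternatives, each tested one kept the direction of its mean in all settings run except the unpaired probability. Against positions of the same 500-nt bin, chosen after seeing the data, its mean at events (0.524) fell below the background, an effect of -0.014. The bin with the most events was more open as a whole. For the share of U, the nucleotide before the event gave a mean excess of only 0.57 points, above 0 in 2 of 4 libraries. At the event itself the excess was 10.6 points, above 0 in 4 of 4. Counting each position once gave a mean of 2822 CPM for MALAT1, and 50-nt bins gave a mean correlation of 0.754 between libraries. The speckle list had 29 genes at a limit of 100 events, 3 at 400 and 8 with each position counted once. Leaving out 1 library in turn gave 5 to 17 genes for it, from 3797 to 4730 CPM for MALAT1, log2 ratios of 1.52 to 1.67 for GANGA, and 22.7% to 25.6% for the 3′ 50% of the length. A window of the last 100 nt gave no log2 ratio, since replicate 1 had 0 events there. No paired analysis was possible because all libraries belong to 1 group. Depth limited statements on the 3′ end most in replicate 3.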
